A study of Mus musculus with 9 samples.

Results

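Estradiol (E2) at 10 pM, the lower of the doses examined, was compared with vehicle in mouse urogenital sinus mesenchymal (UGSM) cells, the fetal connective tissue from which the stroma of the prostate forms. The comparison set the 3 arrays of cells given 10 pM E2 against the 3 arrays of cells given vehicle, which are 6 of the 9 arrays of the series. It covered all 19938 genes that had a probeset with 1 gene symbol. The cells came from male CD-1 mouse fetuses on gestation day 17, were separated from the epithelium, and were used at their first passage. They were kept free of estrogen for 3 days, in medium with charcoal-stripped serum and 690 pM dihydrotestosterone (DHT). They were then given ethanol as vehicle, 10 pM E2 or 100 pM E2 for 4 days. DHT was present in every group, so no group shows E2 without androgen or cells without added steroid. Each group had 3 samples of total RNA, each on an Affymetrix Mouse Gene 1.0 ST array. Nothing in the labels says whether the arrays of a group came from separate cultures, so p-values reflect only how far these samples differ, and that spread may be technical.

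Estradiol acts mainly through estrogen receptors α and β, nuclear receptors encoded by Esr1 and Esr2, which bind DNA at estrogen response elements or through other transcription factors. Among their best known targets are Pgr, which encodes the progesterone receptor, and Greb1, a coactivator of the receptor. In the fetal prostate the receptors of the mesenchyme are of particular interest, because mesenchyme directs the growth of the epithelial buds through secreted factors. Estrogen receptors are also known to interact with NF-κB, the transcription factor that drives acute-phase and chemokine genes.

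Expression values were log2 signals, on which a difference of 1 is a doubling, and the median gene lay between 6.50 and 6.53 on the 6 arrays. The fibroblast collagen genes Col1a1 and Col1a2 had vehicle means of 13.6 and 13.4, and Vim, which encodes vimentin, had 13.0. The epithelial genes Epcam and Cdh1 had 5.18 and 5.34, below the median gene. The summed linear signal of the 16 mesenchymal markers measured was 58250 to 58926 with vehicle and 58333 to 59598 with 10 pM E2. For 20 epithelial markers it was 1273 to 1327 and 1262 to 1267. For 18 macrophage markers it was 1055 to 1213 and 1018 to 1153. Fewer cells of a type and less RNA per cell cannot be told apart in such bulk samples.

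No gene passed the test at 10 pM E2. Of 19938 genes, 0 (0%) had a limma adjusted p below 0.05, and the smallest adjusted p was 0.160, for Saa3. At an unadjusted p below 0.05 there were 705 genes (3.54%), of which 436 were higher and 269 lower with E2. At an unadjusted p below 0.01 there were 110 genes (0.552%), of which 77 were higher and 33 lower. That number was 184 without vehicle replicate 2 and 197 without vehicle replicate 3. The same contrast without variance moderation gave 95 genes at an unadjusted p below 0.01 and 0 after Benjamini-Hochberg adjustment. It sets 10 pM against vehicle only, so its count is not a rerun of the study's analysis of variance.

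The differences were small across nearly all genes. The median absolute log2 difference from vehicle was 0.04, and its 99th percentile was 0.23. For 19838 genes (99.5%) the whole 95% confidence interval lay within 1.5-fold of vehicle in both directions, and for 19936 genes it lay within 2-fold. These counts include dim genes, as no filter on low signal was applied. A narrow interval there need not bound a change in expression, and values repeated between arrays can narrow it. Saa3 alone differed by more than 1.5-fold. With 100 pM E2, set against the same vehicle arrays, the 99th percentile was 0.39, and limma called 226 genes (1.13%), of which 89 (0.446%) rose and 137 (0.687%) fell. With 1 array left out, the number called ranged from 88, without vehicle replicate 1, to 259, without 100 pM replicate 1. It was 143 without any 1 of the 10 pM arrays. Both sets of differences are plotted against their p-values in the plot of all genes.

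**Figure D1:**
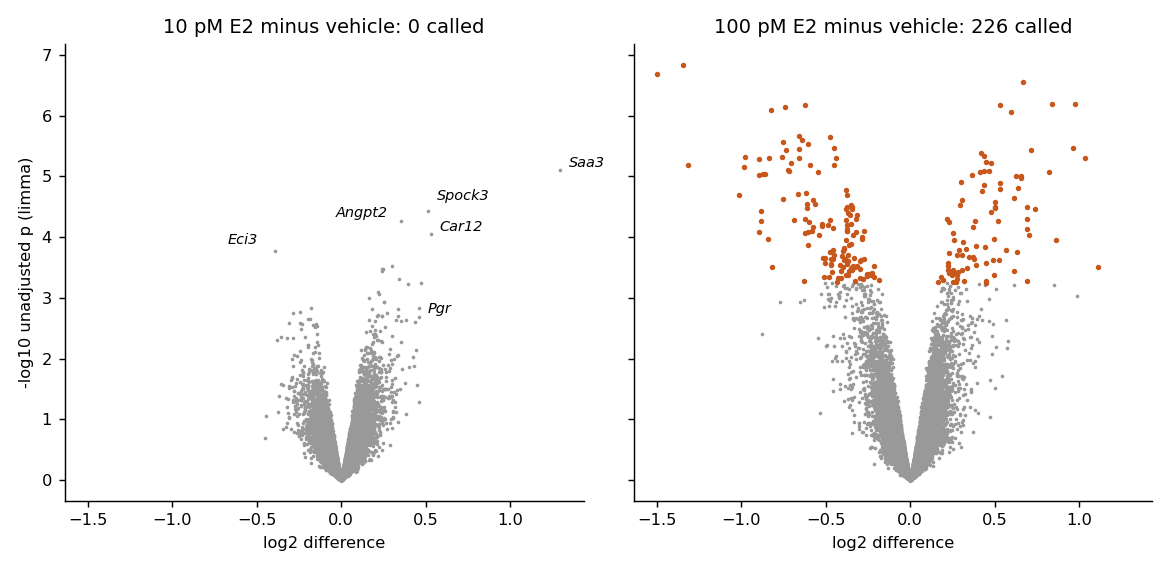
Each point is a gene; the horizontal axis is the log2 difference from vehicle and the vertical axis is −log10 of the unadjusted limma p, for 10 pM E2 (left) and 100 pM E2 (right), which share the 3 vehicle arrays. Orange points are genes at an adjusted p below 0.05, 0 on the left and 226 on the right, and Saa3 stands apart on the left at 1.29.

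The gene that stood farthest from vehicle was Saa3, which encodes a serum amyloid A protein of the acute-phase response that is made in tissues outside the liver. Its log2 signal was 5.33, 5.13 and 4.96 on the vehicle arrays and 6.76, 6.31 and 6.24 on the 10 pM arrays. It was 5.27, 5.01 and 5.16 on the 100 pM arrays. The vehicle mean of 5.14 and the 10 pM mean of 6.43 were both below the median gene. All 3 arrays at 10 pM lay above every array of the other groups, whereas the vehicle and 100 pM arrays overlapped. The difference from vehicle was 1.29 ± 0.14 (SE, n = 3 arrays per group), a 2.45-fold higher signal with a 95% interval of 0.97 to 1.62 on the log2 scale. Its limma p was 8.03e-06 before adjustment and 0.160 after it, and over the alternative settings the adjusted p ran from 0.0160 to 1. It passed the threshold after median centring (adjusted p = 0.0475) and with the replicate number as a block (adjusted p = 0.0160). The direct contrast of the doses did pass, with Saa3 lower at 100 pM than at 10 pM by a log2 difference of −1.29 ± 0.14 (adjusted p = 0.00764). It uses the same 10 pM arrays, and it passed in 16 of 17 alternative settings, the exception being the contrast without variance moderation.

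The 250 bases before the annotated start of Saa3 are shown because no other gene lay as far from vehicle at 10 pM. Those of Pgr are shown as the best known estrogen target with non-overlapping groups, and those of Slc2a1, which encodes the glucose transporter GLUT1, as a hypoxia-response gene described below. The sequences are from RefSeq on GRCm38.p6. They are written 5′ to 3′ on the strand of the gene, at chr7:46715677-46715926 (minus strand) for Saa3, chr9:8899583-8899832 (plus strand) for Pgr and chr4:119108495-119108744 (plus strand) for Slc2a1.
Saa3: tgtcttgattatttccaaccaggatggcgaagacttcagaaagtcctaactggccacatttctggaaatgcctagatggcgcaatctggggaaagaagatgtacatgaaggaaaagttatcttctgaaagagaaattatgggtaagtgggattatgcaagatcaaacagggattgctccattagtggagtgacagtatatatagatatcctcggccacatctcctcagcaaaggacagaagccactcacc
Pgr: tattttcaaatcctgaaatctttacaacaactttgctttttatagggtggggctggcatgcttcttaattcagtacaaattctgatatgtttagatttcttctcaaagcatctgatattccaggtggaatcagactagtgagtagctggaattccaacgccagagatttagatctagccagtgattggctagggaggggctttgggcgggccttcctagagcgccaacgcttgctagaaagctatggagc
Slc2a1: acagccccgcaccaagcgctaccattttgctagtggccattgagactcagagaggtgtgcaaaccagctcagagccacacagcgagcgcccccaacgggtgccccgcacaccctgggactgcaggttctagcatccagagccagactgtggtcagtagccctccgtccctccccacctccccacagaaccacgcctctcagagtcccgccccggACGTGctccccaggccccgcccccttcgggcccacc
Capitals mark a match to the hypoxia response core ACGTG, searched on both strands, and the only match in these windows lay 36 to 32 bases before the start of Slc2a1. Of 32851 such windows in the table, 16.6% held this core. The palindromic estrogen response element GGTCANNNTGACC was in 0.0639% of all windows and a consensus NF-κB motif in 5% of them, and neither was in the 3 windows shown. The same search over the windows of Greb1 and Higd1a, another hypoxia-response gene, found no match. A match or its absence describes these letters in this window only. Vcam1 had no entry in the table.

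Other genes of inflammation lay above vehicle beside Saa3. Of 34 measured NF-κB and acute-phase genes, Saa3 among them, 30 had a higher mean at 10 pM and 4 a lower one. Of all genes, 53.5% were higher. For 12 members the 3 arrays at 10 pM all lay above the 3 vehicle arrays, and for 0 members all below, where 3.74% of all genes were higher without overlap and 2.19% lower. At an unadjusted p below 0.05 there were 8 members higher and 1 lower, beside 2.19% and 1.35% of all genes. The median of the list was 0.10, against 0.00 for all genes. No member passed the adjusted threshold, and no set test was made. Like the other lists, it was chosen with earlier results of these data known, so its counts are a description and not independent evidence.

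Nfkbia encodes IκBα, the inhibitor that holds NF-κB in the cytoplasm and is itself an NF-κB target. Its signal was 7.95, 8.04 and 8.11 with vehicle and 8.29, 8.26 and 8.31 with 10 pM E2, and 7.96, 7.90 and 8.07 with 100 pM E2. The 10 pM arrays lay above all others. The difference from vehicle was 0.25 ± 0.05 (SE, n = 3), with a 95% interval of 0.13 to 0.37 and a limma p of 0.00119 (adjusted p = 1). Between the doses Nfkbia fell by 0.31 on the log2 scale from 10 to 100 pM (limma adjusted p = 0.0390). The call held in 9 of 17 alternative settings and was lost without any 1 of the 10 pM arrays. That contrast uses the same 10 pM arrays that lay above vehicle.

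Vcam1 encodes an adhesion molecule that binds leukocytes. Its signal was 9.72, 9.77 and 9.71 with vehicle and 9.94, 10.01 and 9.89 with 10 pM E2, without overlap. The difference was 0.22 ± 0.04, and at 100 pM it was 0.12. Cxcl16, a membrane-bound chemokine, read 5.58, 5.63 and 5.65 with vehicle and 5.78, 5.80 and 5.78 with 10 pM E2. Its difference was 0.17 ± 0.03, a 1.12-fold higher signal, and at 100 pM it was 0.02.

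The remaining members below an unadjusted p of 0.05 were secreted factors and another inhibitor of the pathway. Ccl2, a chemokine that attracts monocytes, read 6.85, 6.89 and 6.82 with vehicle and 7.15, 7.21 and 7.34 with 10 pM E2, a difference of 0.38 ± 0.09. Its neighbour Ccl7 differed by 0.30 ± 0.09, the interleukin-1 antagonist Il1rn by 0.14 ± 0.05, and Tnfaip3, which encodes the inhibitor A20, by 0.12 ± 0.05. On the lower side stood Saa1, a liver acute-phase gene closely similar in sequence to Saa2 so that their probesets may share signal, at −0.27 ± 0.12, from means of 3.17 and 2.91 that are far below the median gene. Other inflammatory genes sat near vehicle. Icam1 differed by −0.02 ± 0.07, Cxcl10 by 0.00 ± 0.05, Il1b by 0.06 ± 0.06 and Cxcl1 by 0.08 ± 0.10.

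On single arrays, the median deviation of the NF-κB and acute-phase genes from their vehicle means was 0.00, 0.02 and −0.02 with vehicle and 0.08, 0.07 and 0.08 on the 10 pM arrays. At 100 pM it was 0.01, −0.05 and 0.01. The 10 pM arrays thus lay above the others for the list as a whole. Between 10 and 100 pM, limma called 4 members lower at the higher dose, Saa3, Nfkbia, Ccl2 and Lcn2, the lipocalin that binds bacterial siderophores, beside 0.607% of all genes. Without 1 of the 10 pM arrays, or without 100 pM replicate 2, the number was 2. The dose contrast uses the same 10 pM arrays as the comparison with vehicle, so these calls are a description and not independent evidence. Lcn2 itself read 6.01, 5.93 and 5.93 with vehicle and 6.34, 6.00 and 6.02 with 10 pM E2, so the groups overlapped at 10 pM. Of 18 macrophage markers, 13 were lower at 10 pM, and their summed signal ranges overlapped, as given above. Their part in the inflammatory values was not tested. Csf1r, the receptor that defines macrophages, differed by −0.17 ± 0.07 and Cd68 by −0.14 ± 0.06, while Tyrobp, a signalling adaptor of myeloid cells, differed by 0.11 ± 0.05. At an unadjusted p below 0.05 there were 3 of these markers lower and 1 higher, beside 1.35% and 2.19% of all genes. Interferon-stimulated genes had 12 of 22 members higher, 0 at an unadjusted p below 0.05 in either direction, and a median of 0.01.

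**Figure D2:**
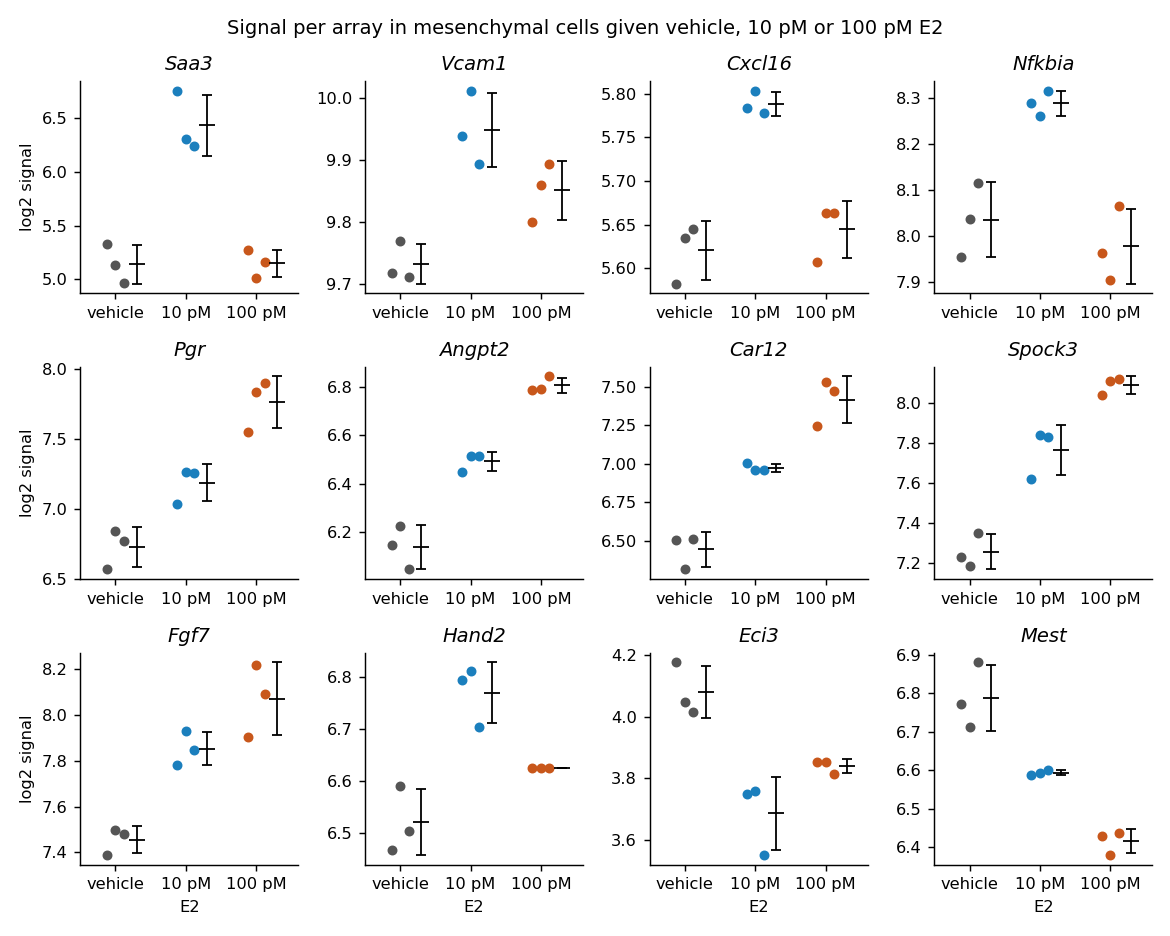
Each point is the log2 signal of 1 array for the gene named above each panel, by E2 dose; the bar and whiskers are the mean and SD of 3 arrays, and axes do not start at 0. In the top row the 10 pM arrays lie above vehicle and, for Saa3, Cxcl16 and Nfkbia, above 100 pM, whereas Pgr, Angpt2, Car12, Spock3 and Fgf7 have their 10 pM means between the other groups.

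Genes of the hypoxia response, which are switched on by HIF transcription factors when oxygen is low, were all slightly higher at 10 pM. All 25 measured members had a higher mean than vehicle, 10 of them without overlap of the arrays and 5 at an unadjusted p below 0.05, beside 3.74% and 2.19% of all genes, and the median was 0.11. Slc2a1, whose upstream sequence is given above, read 10.24, 10.24 and 10.26 with vehicle and 10.51, 10.45 and 10.38 with 10 pM E2, a difference of 0.20 ± 0.05. Egln3, an oxygen sensor that marks HIF for removal, read 7.62, 7.55 and 7.70 with vehicle and 8.01, 8.00 and 7.92 with 10 pM E2, a difference of 0.36 ± 0.10. In both genes the 10 pM arrays lay above all vehicle arrays. P4ha2, a collagen prolyl hydroxylase, differed by 0.21 ± 0.09, and Bnip3, a mitophagy receptor, by 0.32 ± 0.14. Vegfa, the angiogenic growth factor, differed by 0.05 ± 0.06 with overlapping arrays and an interval of −0.08 to 0.19.

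Higd1a, a mitochondrial protein gene, depended on its probeset. The brighter probeset read 7.98, 7.83 and 7.98 with vehicle and 8.28, 8.32 and 8.26 with 10 pM E2, a difference of 0.36 ± 0.09. A second probeset of the gene differed by 0.01, with overlapping arrays. The choice of probeset therefore decided its value.

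Glycolysis enzymes followed in the same direction, 12 of 13 higher, 9 without overlap (3.74% of all genes) and 3 at an unadjusted p below 0.05 (2.19% of all genes), with a median of 0.09. Pgk1, phosphoglycerate kinase, read 12.56, 12.56 and 12.52 with vehicle and 12.68, 12.72 and 12.72 with 10 pM E2, a difference of 0.16 ± 0.05, and its other probesets differed by the same 0.16. Tpi1, triosephosphate isomerase, differed by 0.19 ± 0.06 and Pkm, pyruvate kinase, by 0.12 ± 0.05. Hexokinase genes lay close to vehicle, with Hk2 at 0.05 ± 0.05 and Hk1 at −0.03 ± 0.04. Glycolysis is a pathway the study drew from these samples, so the count is not independent evidence of its direction. Several enzymes are also HIF targets, so the lists are not independent of each other.

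At 100 pM, against the same vehicle arrays, the median was −0.20 for hypoxia-response genes and −0.10 for glycolysis enzymes. The direct contrast called 6 hypoxia-response genes and 2 glycolysis enzymes lower at 100 than at 10 pM, beside 0.607% of all genes. Among them Egln3 fell by 0.83 and Pgk1 by 0.34 on the log2 scale (limma adjusted p = 0.00970 and 0.0158), calls that held in 14 and 13 of 17 alternative settings. The count of hypoxia-response genes was 0 or 1 without any 1 vehicle or 10 pM array, and that of glycolysis enzymes was 0 without 10 pM replicate 1 and 1 without 10 pM replicate 2 or 3. The median deviation of hypoxia-response genes was 0.09, 0.14 and 0.12 on the 10 pM arrays, against 0.00, −0.03 and 0.04 with vehicle. On the 100 pM arrays it was −0.12, −0.37 and −0.09, so the second of these arrays lay lowest. Without it the medians at 100 pM were −0.09 for hypoxia-response genes and −0.04 for glycolysis enzymes. The study drew glycolysis from genes it had grouped, on these arrays, as raised at 10 pM and reduced at 100 pM. A fall between the doses was therefore part of that choice. Both lists were also chosen with earlier results known, so the dose calls and the medians at 100 pM only describe these arrays.

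Genes of mitosis were also higher at 10 pM, by small amounts. Of 24 measured members, 23 had a higher mean, where 53.5% of all genes did, and 0 were lower at an unadjusted p below 0.05. Higher without overlap were 14 members, and 10 were higher at an unadjusted p below 0.05, beside 3.74% and 2.19% of all genes. The median difference was 0.12, which was 0.16 without vehicle replicate 3. Aurka, a kinase of the spindle poles, read 7.99, 8.09 and 8.02 with vehicle and 8.16, 8.23 and 8.11 with 10 pM E2, a difference of 0.14 ± 0.04. Plk1, a kinase of mitotic entry, differed by 0.12 ± 0.04, and Mki67, the proliferation marker, by 0.12 ± 0.07. Cdc20, an activator of the anaphase-promoting complex, sat at vehicle with 0.00 ± 0.05. DNA replication genes had 20 of 26 members higher, 6 without overlap (3.74% of all genes) and a median of 0.05, which was 0.03 without vehicle replicate 1. Among them Mcm7, a subunit of the replicative helicase, was at 0.15 ± 0.04.

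The array medians of the mitosis genes were −0.01, −0.01 and 0.05 with vehicle, and 0.09, 0.14 and 0.11 at 10 pM. At 100 pM they were 0.09, 0.08 and 0.20, with a median difference of 0.12, the same to 2 decimals as at 10 pM. Of these genes, limma called Plk1 at 100 pM, where it rose by 0.22 (adjusted p = 0.0323). The plot of array medians sets these lists side by side.

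**Figure D3:**
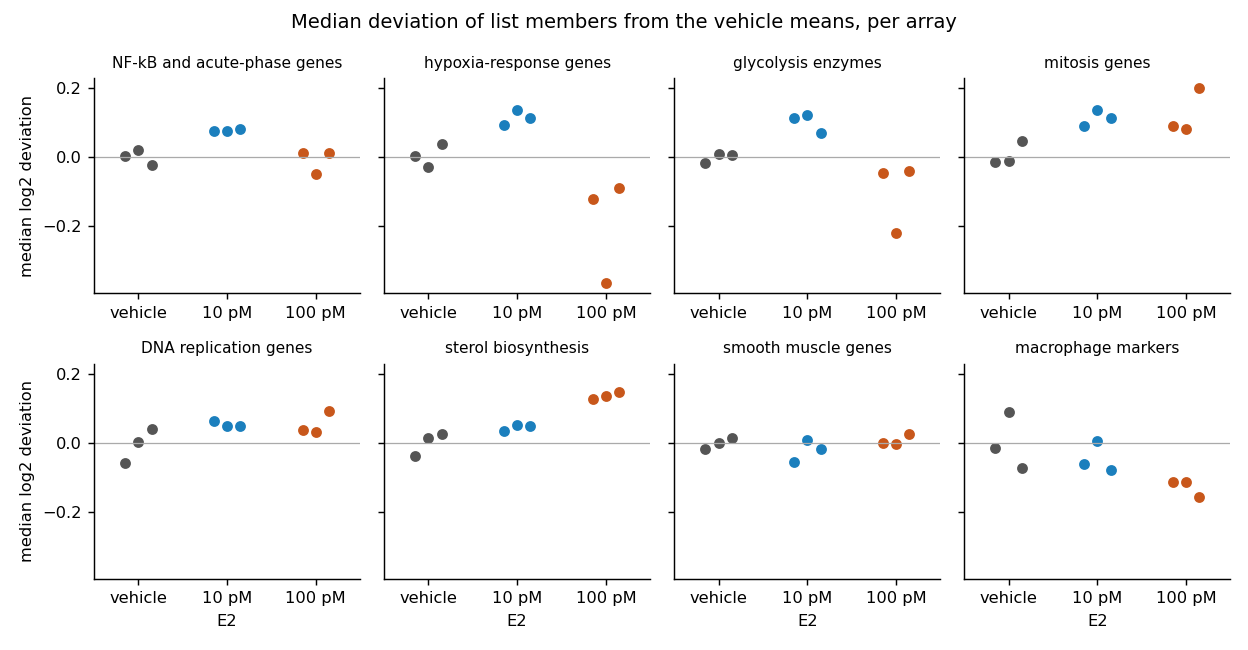
Each point is 1 array, and the vertical axis is the median over list members of the log2 deviation from the member's vehicle mean, for 8 gene lists at vehicle, 10 pM and 100 pM E2. NF-κB, hypoxia-response, glycolysis and mitosis lists lie above vehicle on all 3 arrays at 10 pM. DNA replication and sterol biosynthesis lists do so narrowly, and smooth muscle genes and macrophage markers do not.

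Of the classical estrogen targets, the genes best known to answer the receptor, Pgr lay farthest from vehicle. Pgr read 6.57, 6.84 and 6.77 with vehicle and 7.04, 7.27 and 7.26 with 10 pM E2, and 7.55, 7.84 and 7.90 with 100 pM E2. The 3 groups did not overlap and stood in order of dose. The difference at 10 pM was 0.46 ± 0.11 (SE, n = 3), a 1.38-fold higher signal with a 95% interval of 0.22 to 0.70 (limma adjusted p = 1). At 100 pM Pgr rose by 1.04 ± 0.11 (adjusted p = 0.00359).

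Greb1 read 5.17, 5.04 and 4.79 with vehicle and 5.24, 5.25 and 5.36 with 10 pM E2, all below the median gene. The groups did not overlap, though the gap was narrow, and the difference was 0.28 ± 0.12 with an interval of 0.01 to 0.55. At 100 pM it was 0.61 (adjusted p = 0.0523). Pgr and Greb1 were the only 2 of 23 measured targets that did not overlap at 10 pM. Over all genes, 3.74% were higher without overlap and 2.19% lower. Of the list, 17 were higher and 6 lower, with a median of 0.02, and for 22 the interval lay within 1.5-fold. Ccnd1, which encodes cyclin D1, differed by 0.07 ± 0.05 and Myc by 0.05 ± 0.05. Igf1, an insulin-like growth factor gene, and Igfbp4, the gene of a binding protein of such factors, differed by −0.04 ± 0.05 and −0.08 ± 0.08. At 100 pM they fell by 0.37 and 0.76.

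The receptor genes lay close to vehicle. Esr1 read 7.48, 7.44 and 7.49 with vehicle and 7.54, 7.58 and 7.59 with 10 pM E2, without overlap. The difference was 0.10 ± 0.05, with an interval of −0.01 to 0.21, and at 100 pM it was 0.21 (adjusted p = 0.0997). Esr2 had a vehicle mean of 5.36, below the median gene, and differed by −0.08 ± 0.09. The membrane receptor gene Gper1 differed by −0.06 ± 0.07 and the pioneer factor Foxa1 by −0.08 ± 0.07. Of 20 receptor and cofactor genes, 12 were higher and 8 lower, and all 20 had intervals within 1.5-fold. Steroid-metabolizing genes had 12 of 22 higher, with 0 below an unadjusted p of 0.05, beside 3.54% of all genes.

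Among the genes with the smallest p at 10 pM were several whose 10 pM mean lay between vehicle and 100 pM. Spock3, which encodes the matrix proteoglycan testican-3, read 7.23, 7.18 and 7.35 with vehicle, 7.62, 7.84 and 7.83 with 10 pM and 8.04, 8.11 and 8.12 with 100 pM E2. Its difference was 0.51 ± 0.07 at 10 pM, a 1.42-fold higher signal (limma adjusted p = 0.356), and it rose by 0.84 at 100 pM. All 3 groups were separate.

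Car12, a carbonic anhydrase at the cell surface, read 6.50, 6.31 and 6.51 with vehicle, 7.00, 6.96 and 6.96 with 10 pM and 7.25, 7.53 and 7.47 with 100 pM E2. The difference was 0.53 ± 0.08 at 10 pM (adjusted p = 0.451) and it rose by 0.97 at 100 pM. The dose contrast of 0.44 passed (adjusted p = 0.0428), and held in 8 of 17 alternative settings, not without any 1 of the 10 pM arrays. Angpt2, angiopoietin 2, a ligand of the endothelial receptor TIE2, read 6.15, 6.22 and 6.05 with vehicle, 6.45, 6.51 and 6.51 with 10 pM and 6.79, 6.79 and 6.84 with 100 pM E2. Its difference was 0.35 ± 0.05 at 10 pM (adjusted p = 0.356), and it rose by 0.67 at 100 pM. The groups of Car12 and of Angpt2 did not overlap, and their intervals at 10 pM were 0.35 to 0.71 and 0.24 to 0.46. In both genes a value was repeated between 10 pM arrays, which can lower the spread and narrow the interval.

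Fgf7, a growth factor that mesenchyme sends to epithelium, read 7.39, 7.50 and 7.48 with vehicle and 7.78, 7.93 and 7.85 with 10 pM E2. At 100 pM it read 7.91, 8.22 and 8.09, so the 10 and 100 pM groups overlapped and both lay above vehicle. The difference was 0.40 ± 0.08 at 10 pM (adjusted p = 1) and it rose by 0.62 at 100 pM. Hand2, a transcription factor that in the uterine stroma acts downstream of progesterone, read 6.47, 6.59 and 6.51 with vehicle and 6.80, 6.81 and 6.70 with 10 pM E2, a difference of 0.25 ± 0.04. Its 100 pM arrays all read 6.63, for a difference of 0.10.

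Fgf7 and Hand2 were the 2 of 32 paracrine and patterning genes of the prostate mesenchyme below an unadjusted p of 0.05. Over all genes, 2.19% were higher and 1.35% lower at that threshold. In the list as a whole 14 were higher and 18 lower, with a median of −0.01. Fgf2 and Tgfb3, growth factors of the stroma, lay below vehicle without overlap at −0.13 ± 0.06 and −0.09 ± 0.04. The Wnt pathway list, with 19 of 36 higher and a median of 0.00, held Dkk2, a secreted Wnt antagonist, at 0.30 ± 0.10 and Rspo2, a secreted Wnt potentiator, at 0.13 ± 0.04. Dkk2 read 7.67, 7.48 and 7.51 with vehicle and 7.79, 7.88 and 7.88 with 10 pM E2, without overlap.

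The rest of the 15 higher genes of smallest p were mixed in kind. Prxl2a, a peroxiredoxin-like gene, differed by 0.47 ± 0.09, and Muc16, a membrane mucin, by 0.34 ± 0.06 from a vehicle mean far below the median gene, with arrays of 3.02, 2.99 and 3.10. Cadps2, a gene of vesicle secretion, differed by 0.30 ± 0.05. Clca3a2, of a chloride channel accessory family, Cib3, of a calcium-binding family, and Gal, the neuropeptide galanin, differed by 0.24 ± 0.04, 0.24 ± 0.04 and 0.22 ± 0.05. Olfactory receptor genes, which these cells are not known to use, were 10 of the 110 genes at an unadjusted p below 0.01, or 9.09%, and made up 5.15% of all genes measured.

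Lower genes were fewer and nearer to vehicle. Eci3, an enzyme of fatty acid oxidation, read 4.18, 4.05 and 4.02 with vehicle and 3.75, 3.76 and 3.55 with 10 pM E2, without overlap. The difference was −0.39 ± 0.06, with an interval of −0.54 to −0.25 (limma adjusted p = 0.675). These levels are well below the median gene. Mest, an imprinted gene expressed from the paternal copy, read 6.77, 6.71 and 6.88 with vehicle and 6.59, 6.59 and 6.60 with 10 pM E2. It differed by −0.19 ± 0.05 and fell by 0.37 at 100 pM (adjusted p = 0.00675).

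Cntfr, the receptor for ciliary neurotrophic factor, read 7.70, 7.83 and 7.80 with vehicle and 7.59, 7.52 and 7.50 with 10 pM E2, a difference of −0.24 ± 0.05. Atf3, a stress-induced transcription factor, differed by −0.17 ± 0.04 and Gria4, a glutamate receptor subunit, by −0.18 ± 0.04. Tmem130, a membrane protein gene, differed by −0.31 ± 0.08 and Rdh16f2, of a retinol dehydrogenase family, by −0.29 ± 0.07. Krtap3-3, Hnf4aos, Btg1c, Rab39 and Kcns3 lay between −0.14 and −0.18. Of the 15 lower genes of smallest p, 3 had no gene name of their own or were olfactory receptors.

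Among the 5 largest lower differences were genes with wide intervals. Lce3e, a gene of the skin's cornified envelope, differed by −0.45 ± 0.33 and the interferon gene Ifnab by −0.44 ± 0.23, and both had intervals that included 0. The probeset of the microRNA gene Mir29a read 4.07, 4.07 and 4.28 with vehicle and 3.90, 3.56 and 3.81 with 10 pM E2. Its difference was −0.38 ± 0.10 (limma adjusted p = 1), and at 100 pM it was 0.11.

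The inducible and suppressible lists used here are the genes the study tabulated as changed at every E2 dose it tested, and not its larger groups of responsive genes. The choice used the vehicle, 10 pM and 100 pM samples described here, together with a higher dose not analysed here. Their counts and their medians at both doses are therefore a description and not independent evidence of direction. Of 13 inducible genes measured, 12 were higher at 10 pM, 11 without overlap and 9 at an unadjusted p below 0.05, beside 3.74% and 2.19% of all genes, with a median of 0.24 at 10 pM and 0.53 at 100 pM. Beside Angpt2, Pgr and Dkk2, they included Thbs2, a matrix glycoprotein, at 0.18 ± 0.04 and Sprr1a, a cornified envelope protein, at 0.40 ± 0.13. Of 14 suppressible genes, 7 were higher and 7 lower at 10 pM, with a median of −0.01, against −0.51 at 100 pM. Egfl6, a secreted matrix protein, read 7.31, 7.19 and 7.41 with vehicle and 7.09, 7.17 and 7.22 with 10 pM E2, overlapping, at a difference of −0.14 ± 0.11. At 100 pM Egfl6 fell to 6.01, 5.56 and 5.84 (limma adjusted p = 0.00175), and the direct contrast of 100 with 10 pM was −1.36 on the log2 scale (adjusted p = 0.00413), a call that held in 16 of 17 alternative settings.

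For the 14 suppressible genes, every interval at 10 pM lay within 1.5-fold of vehicle. Dose contrasts between 100 and 10 pM called 8 of the 14 suppressible genes lower and 3 of the 13 inducible genes higher, beside 0.607% and 0.226% of all genes. Those numbers were 3 or 4 and 0 without any 1 of the 10 pM arrays, and the second was 7 with a trended and robust prior. Both lists were chosen on these same 10 and 100 pM arrays, so the dose calls are a description too. Sfrp4, a secreted Wnt antagonist, gave 0.08 ± 0.12 at 10 pM, and Igfbp2, a binding protein of insulin-like growth factors, gave 0.04 ± 0.04. At 100 pM they fell by 0.88 and 0.47.

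The other lists gave medians from −0.06 to 0.06 at 10 pM, against 0.00 for all genes. Extracellular matrix genes had 12 of 32 higher and a median of −0.01 at 10 pM, against −0.16 at 100 pM. In that list Eln, elastin, differed by −0.23 ± 0.09 at 10 pM and fell by 1.34 at 100 pM. Sterol biosynthesis genes had 16 of 20 higher, 2 without overlap (3.74% of all genes) and a median of 0.06, which was 0.03 without vehicle replicate 1 or vehicle replicate 3. Respiratory chain genes had 18 of 25 higher and a median of 0.03. Stress-response genes (13 of 20 higher) and immediate-early genes (13 of 24) had medians between −0.02 and 0.02. So did genes of the insulin-like growth factor axis (8 of 19) and retinoid genes (5 of 21). Smooth muscle genes had 3 of 19 higher and a median of −0.02, with Myh11, smooth muscle myosin, at −0.11 ± 0.05. Mesenchymal markers had 8 of 16 higher, epithelial markers 8 of 20, endothelial markers 4 of 14, neural markers 6 of 9, skeletal muscle markers 4 of 11 and adipocyte markers 4 of 8. Macrophage markers had the lowest median of any list, −0.06, which was −0.12 without vehicle replicate 3.

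**Figure D4:**
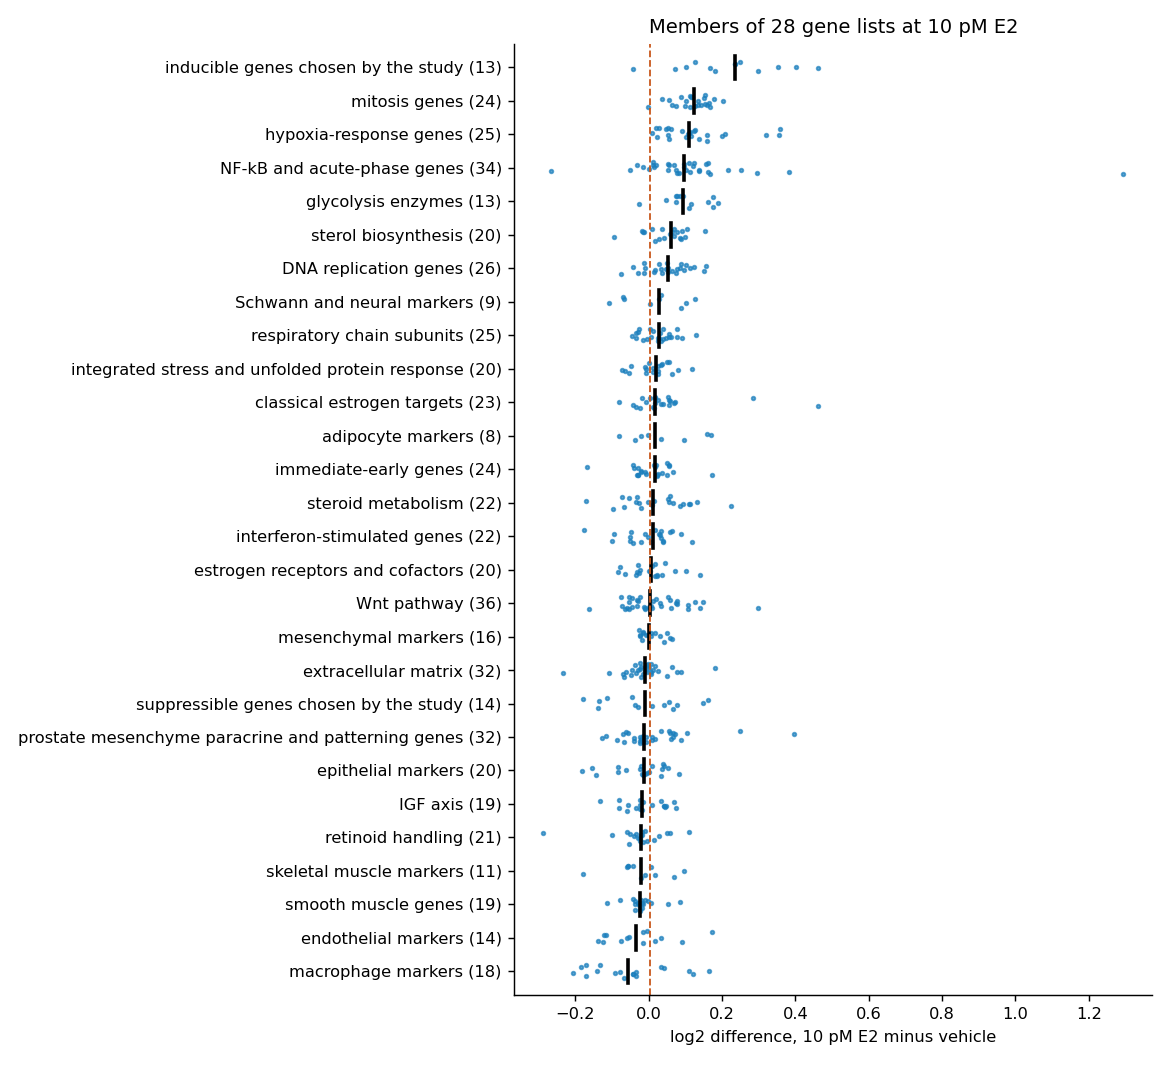
Each point is a gene, placed by its log2 difference between 10 pM E2 and vehicle; rows are the 28 gene lists with the number of members measured, black bars are list medians and the dashed line is the median of all genes. Inducible, mitosis, hypoxia-response, NF-κB and glycolysis lists lie to the right of the line, with medians of 0.09 to 0.24, and Saa3 is the point at 1.29.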

How the data were processed

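Gene expression was measured on 9 arrays, of which the 6 from vehicle and 10 pM E2 are compared. The authors made the deposited log2 values per probeset from the scans with GCOS and the Gene Expression Console, according to the submitters' processing notes and the methods. The normalization method and build are not given in the sources used here, and that the scale is log2 was read from the values. Genes were not centred, and the direction is that of signal. Such summaries can repeat a value between arrays, which can lower the spread of those genes. For 11037 genes (55.4%) a value was equal to 5 decimals on at least 2 of the 6 arrays, for 44 on all 6. Of the 27 described genes of smallest p, 3 held such a repeat, Car12, Angpt2 and Clca3a2, each between 10 pM arrays. Hand2 had a repeat at 100 pM.

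Of 35556 probesets, an older annotation gave 1 symbol for 21789 and several for 1621, and 12146 are unnamed here. Of the 19938 genes, 999 had over 1 probeset for which the probeset of highest mean signal stood, with no filter on low signal. Group means were estimated from the 9 arrays together by limma (version 3.58.1, lmFit then eBayes, under R 4.3.3), two-sided, with Benjamini-Hochberg adjustment over all genes and a threshold of 0.05. The scripts were tested on simulated data, and figures were drawn with matplotlib 3.10.9. Named genes were the 15 in each direction of smallest p among those whose arrays did not overlap, the 5 largest differences in each direction, up to 4 members per list of smallest p, and Esr1, Pgr, Greb1, Vegfa and both lists taken from the study. Other list members with values, such as Ccl2, were added after their values were seen. The gene lists (28, with 580 of 616 entries measured) and the members described were chosen with earlier results of these data known. Alternatives changed scaling, probeset choice, a filter on the dimmest 30% of genes, moderation, array weights, the arrays fitted, and left out each array in turn. The reported analysis did not pair arrays by replicate number.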

Additional observations from a re-analysis of the deposited data

How the results depend on the processing

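The number of genes at an adjusted p below 0.05 was 0 in the reported analysis and under the alternatives tried, except for 1 gene, Saa3, after median centring and 1 gene, Saa3, with the replicate number as a block. Same-numbered vehicle and 10 pM arrays did not deviate together (r = 0.015, −0.087 and −0.003), and the 100 pM arrays were not compared in this way. No pairing was thus visible, but this cannot show whether same-numbered arrays were handled as sets. The block result is given as 1 of the alternatives. With the block, Saa3 differed by 1.29 with an adjusted p of 0.0160. The number of genes at an unadjusted p below 0.01 was 110, became 245 when all 35556 probesets were tested in place of 19938 genes, and ranged from 112 to 197 when 1 array was left out. With 1 array left out, the number at an adjusted p below 0.05 was 0 each time. The number called at 100 pM was 226, from 88 to 259 with 1 array left out, and 30 without variance moderation. It reached 349 with a trended and robust prior. Between the doses the number was 166, from 30 to 178, and 1, and it reached 291 with the dimmest 30% of genes left out.

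The median of NF-κB and acute-phase genes ranged from 0.0777 to 0.10 when 1 array was left out, that of mitosis genes from 0.107 to 0.162, and that of sterol biosynthesis genes from 0.0257 to 0.0741. Of 148 named genes, 5 changed direction under some alternative, each with a 95% interval that included 0, and the cause was not tested. Igf2bp1 became −0.015 with probesets averaged. With 1 array left out, Cyp26b1 ranged from −0.0143 (without 10 pM replicate 2) to 0.170, Elavl4 from −0.0450 (without 10 pM replicate 2) to 0.211, Vim from −0.0116 (without vehicle replicate 1) to 0.0540, and Cd36 from −0.170 to 0.00457 (without vehicle replicate 2). With 3 arrays per group, the median half-width of the 95% interval was 0.13 on the log2 scale before any adjustment for the number of genes. The adjusted test was coarser, and at 0.53 and 0.51 Car12 and Spock3 did not pass it.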
